A study of Mus musculus and Homo sapiens with 40 samples.

Results

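The regions described here were marked by H3K27ac, acetylation of histone H3 at lysine 27, in HPC-7 cells that expressed the p30 isoform of CEBPA and had received LPS, and in none of the other H3K27ac lists. They were selected on the measured peaks themselves: the 4 pooled H3K27ac lists (untreated p42, p42 with LPS, untreated p30, p30 with LPS) were merged on chromosomes 1 to 19, X and Y wherever peaks shared at least 1 bp, and a region was kept if it held a peak of the p30 LPS list and none of the other 3. This left 23348 of 183190 merged regions, 12.7% of the total. The same rule gave 22958 regions found only in untreated p30 cells, 6861 only in p42 with LPS and 17040 only in untreated p42, while 56651 regions held peaks of all 4 lists and 3034 were found with LPS in both lines and in neither untreated list.

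HPC-7 cells, mouse progenitors of the blood lineages, make very little CEBPA of their own. They were transduced with a retrovirus carrying CEBPA p42 or CEBPA p30, each fused to ERT2, the tamoxifen-binding part of the estrogen receptor that keeps the protein out of the nucleus until 4-hydroxytamoxifen is given. Each line thus carried 1 transgene under a viral promoter, and isoform and line cannot be told apart. LPS was given at 100 ng/mL for 2 h, and untreated cells received none. Untreated thus refers to LPS only. According to the study's methods, cells with the fusion proteins were given hydroxytamoxifen ahead of the experiment to bring these proteins into the nucleus. The sample titles do not mention hydroxytamoxifen. H3K27ac was measured by ChIP-seq in 3 replicates of each of the 4 groups, whose reads were pooled by the authors into 1 list per group. H3K4me1 (2 replicates pooled) and anti-ER (1 library, against the ERT2 part) were measured in each line without LPS. Anti-CEBPA (1 library) was also measured in each line, and its sample titles name no treatment. With 1 list a group no difference between groups could be tested over replicates. The intervals given below are 95% Wilson intervals over regions, they cover counting error only, and neighbouring regions are not independent. The lists carry no read depth, and a region that misses the cutoff in 3 lists may still have carried some signal there.

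H3K27ac marks active enhancers and promoters, and H3K4me1 marks enhancers whether active or merely poised. LPS, a part of the outer membrane of Gram-negative bacteria, is sensed by Toll-like receptor 4, which releases NF-kB from its inhibitors and activates AP-1 through MAP kinases, and both factors bind enhancers of inflammatory genes. CEBPA is a bZIP factor of the myeloid lineage, and the short isoform p30 lacks part of the N-terminal transactivation region while it keeps the DNA-binding domain. The progenitor label was borne out by the lists: of 17 progenitor genes, among them Gata2, Tal1 and Kit, 15 had an H3K27ac peak of the p30 LPS list over a start site, against 1 of 16 genes of other tissues.

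The following stretches of GRCm39 (mm39), plus strand, show the best-ranked regions outside promoters that held each of 3 sequence types inside the peak, with every match to the named sequence type in capitals and 60 bases on both sides of the match nearest to the summit. The first 3 hold an NF-kB sequence, the site type bound by the factor that LPS releases.
Tspan18 intron, chr2:93044708-93044837: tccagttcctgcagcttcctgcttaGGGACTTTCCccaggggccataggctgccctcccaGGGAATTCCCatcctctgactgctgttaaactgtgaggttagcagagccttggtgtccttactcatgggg
Gtf2f2 nearest, intron of the lncRNA gene Gm36477, chr14:76289538-76289667: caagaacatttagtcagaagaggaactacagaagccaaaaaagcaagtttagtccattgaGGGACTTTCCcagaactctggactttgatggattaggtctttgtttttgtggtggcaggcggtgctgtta
Gatd3a nearest, intron of the lncRNA gene Gm47922, chr10:77964606-77964735: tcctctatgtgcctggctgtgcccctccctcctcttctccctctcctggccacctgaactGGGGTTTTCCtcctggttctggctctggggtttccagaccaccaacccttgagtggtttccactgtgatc
The next 3 hold the AP-1 sequence TGACTCA or TGAGTCA, bound by FOS and JUN dimers, and the first of them lies in the same Tspan18 region.
Tspan18 intron, chr2:93045250-93045376: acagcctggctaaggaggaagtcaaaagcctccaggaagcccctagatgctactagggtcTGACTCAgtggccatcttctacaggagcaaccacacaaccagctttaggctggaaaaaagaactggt
Trim24 nearest, between genes, chr6:37799366-37799492: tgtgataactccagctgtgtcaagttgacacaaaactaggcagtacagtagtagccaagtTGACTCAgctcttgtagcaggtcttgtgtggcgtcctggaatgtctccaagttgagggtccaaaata
Specc1l intron, chr10:75118414-75118540: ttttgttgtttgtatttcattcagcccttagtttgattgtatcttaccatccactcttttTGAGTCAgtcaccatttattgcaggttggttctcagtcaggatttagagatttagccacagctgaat
The last 3 hold a CEBP sequence (TTGCACAA, TTGCATAA, TTGCGCAA or TTGCGTAA, on either strand) inside an anti-CEBPA peak of p30 cells.
Olig3 nearest, intron of the lncRNA gene Gm20139, chr10:19062900-19063027: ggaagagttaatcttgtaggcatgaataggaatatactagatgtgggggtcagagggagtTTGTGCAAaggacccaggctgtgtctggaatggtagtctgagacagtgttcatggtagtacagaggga
Calhm6 nearest, between genes, chr10:34015945-34016072: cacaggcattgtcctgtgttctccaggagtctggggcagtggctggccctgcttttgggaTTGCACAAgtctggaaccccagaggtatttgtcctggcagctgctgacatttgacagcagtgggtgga
Ralgps1 nearest, between genes, chr2:33289275-33289402: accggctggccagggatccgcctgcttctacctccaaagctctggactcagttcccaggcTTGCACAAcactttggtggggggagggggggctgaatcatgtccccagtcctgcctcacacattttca
The Tspan18 region (chr2:93044278-93045630, 1353 bp wide) had a fold enrichment of 7.90 over background in the p30 LPS list and lay 130053 bp from the nearest peak of any other H3K27ac list. It held 2 NF-kB sequences, the nearer 374 bp before the summit, and its AP-1 sequence lay 166 bp after the summit. In the region nearest to Gatd3a the NF-kB sequence was 7 bp from the summit, in a peak of 6.97-fold enrichment. The region nearest to Trim24 is placed between genes by its summit, 531 bp before its AP-1 sequence, while the gene Gm66925 overlapped the peak. The CEBP examples were weaker, with 4.13-, 3.78- and 2.95-fold enrichment, and the CEBPA site under them had a fold of 7.59, 2.71 and 6.98 in the anti-CEBPA p30 list. Sequences inside the peak itself were uncommon: 3.85% of the 21175 regions outside promoters held an NF-kB sequence within their boundaries, 5.14% an AP-1 sequence and 0.869% a CEBP sequence.

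These regions were drawn from the weak end of the p30 LPS list. They made up 16.4% of its 142419 peaks, their median rank by q was 110548, and the best-ranked stood at 11307. When the list was cut into 10 equal parts by q, 1 of the 14241 peaks in the strongest part was unique to it, against 5778 of 14242 peaks in the weakest part. The median fold enrichment was 2.60 (2.18 to 3.19 between the lowest and highest 10%) and the median width 219 bp, compared with 6.17-fold and 1464 bp for regions of all 4 lists. A q under 1e-05 was reached by 4693 regions (20.1%), a fold of 5 by 65, and a width of 1000 bp by 58. At the other side, 2008 regions (8.60%) had a q between 0.01 and 0.05, the authors' cutoff. Regions only in untreated p30 cells had much the same profile, with a median fold of 2.62 and a median width of 242 bp. All these values chose the regions and are given as a description.

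**Figure D1:**
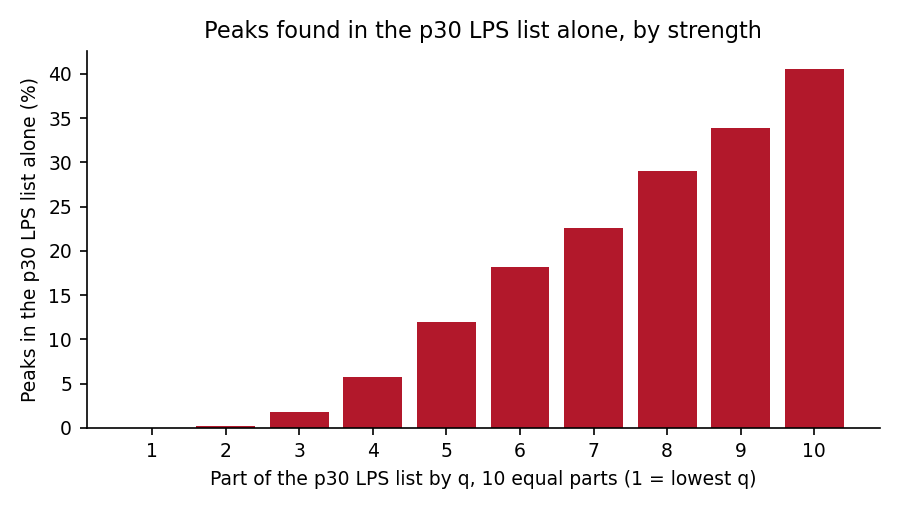
Share of the peaks of the p30 LPS list that no other H3K27ac list held (%, bars) in 10 equal parts of that list ordered by q, with 1 the lowest q. The share was 0.00702% in the strongest part, 12.0% in the fifth and 40.6% in the weakest.

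The number of regions depended on how long each list was. The p30 LPS list was the longest of the 4 and the p42 LPS list the shortest, with 107141 peaks. With the best 107141 peaks of every list, 14145 regions were found only in p30 with LPS against 15113 only in untreated p30, so that the order of the 2 classes turned. In p42 cells 10743 were then found only with LPS and 13795 only untreated. The boundary of the rule was narrow as well: 199 regions ended within 10 bp of a peak of another list (median fold 2.48), and 143 others were left out although their p30 LPS peaks shared no more than 10 bp with another list (median fold 2.77).

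Most of the regions lay close to an H3K27ac peak of at least 1 of the other lists. The median distance to the nearest peak of another list was 635 bp, and 62.1% lay within 1000 bp of one. A neighbour within 1000 bp was found on both sides for 20.5% and on 1 side only for 41.5%. By list, 52.0% lay within 1000 bp of a peak of untreated p30, 41.7% of untreated p42 and 35.1% of p42 with LPS, which is also the order of the lengths of these lists (139210, 129369 and 107141 peaks). With equally long lists the shares of the 14145 regions were 46.2%, 38.3% and 38.8%. The other single-list classes were alike in this. Regions only in untreated p30 lay at a median of 711 bp from another list (59.6% within 1000 bp). Those only in p42 with LPS lay at 470 bp (69.6%) and those only in untreated p42 at 586 bp (64.8%). More than 10 kb from any other peak were 1201 regions (5.14%), against 865 (3.77%) of those only in untreated p30. A region that appeared with LPS in both lines lay within 10 kb of 3116 of the p30 LPS regions (13.3%), of 1768 (7.70%) only in untreated p30 and of 978 (14.3%) only in p42 with LPS.

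Neighbouring regions of the class often followed one another. Counted along the chromosome, 32.6% stood next to another region of the class with no region of another class between, close to the 33.2% of regions only in untreated p30. Long runs were rarer: 460 regions (1.97%) stood in 81 runs of 5 or more, against 270 (1.18%) in 51 such runs only in untreated p30. The longest had 9 regions. The run past the 3′ end of Bcl11a, which encodes a zinc finger repressor of fetal globin genes, spanned 14929 bp (chr11:24136596-24151524) with a best fold of 3.66, and 3 of its regions carried H3K4me1 in untreated p30 cells. The run at Gdpd5 (chr7:99063281-99078122) reached 6.52-fold and 6 of its 9 regions carried H3K4me1. At Gse1, a gene linked to the CoREST repressor complex, all 7 regions of a run of 19650 bp carried it. Other long runs carried less. In the remaining run of 9, nearest to Tmc1, 4 regions carried it. In the runs of 8 it lay over 1 region each nearest to Tmco5, Pttg1 and Spmip3, 3 nearest to Slc6a12 and 0 nearest to Akap7.

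H3K4me1 had been present in untreated p30 cells at 8014 of the regions (34.3%, interval 33.7 to 34.9%), against 42.8% of all merged regions. It was found at 23.2% of regions only in untreated p30, 23.0% only in p42 with LPS, 18% only in untreated p42, 39.3% of regions that appeared in both lines and 68.7% of regions of all 4 lists. These 8014 regions thus had a called H3K4me1 peak and no called H3K27ac peak in the same untreated p30 cells. In untreated p42 cells H3K4me1 lay over 21.4% (20.9 to 21.9%), against 36.4% of all merged regions and 14.1% of regions only in untreated p30. Split by line, 17.2% carried H3K4me1 in both lines, 17.1% in p30 alone, 4.18% in p42 alone and 61.5% in neither. The p30 H3K4me1 list was the longer of both (168035 peaks against 134658), and with equally many peaks the p30 share came to 29.9%, still above the p42 share of 21.4%.

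**Figure D2:**
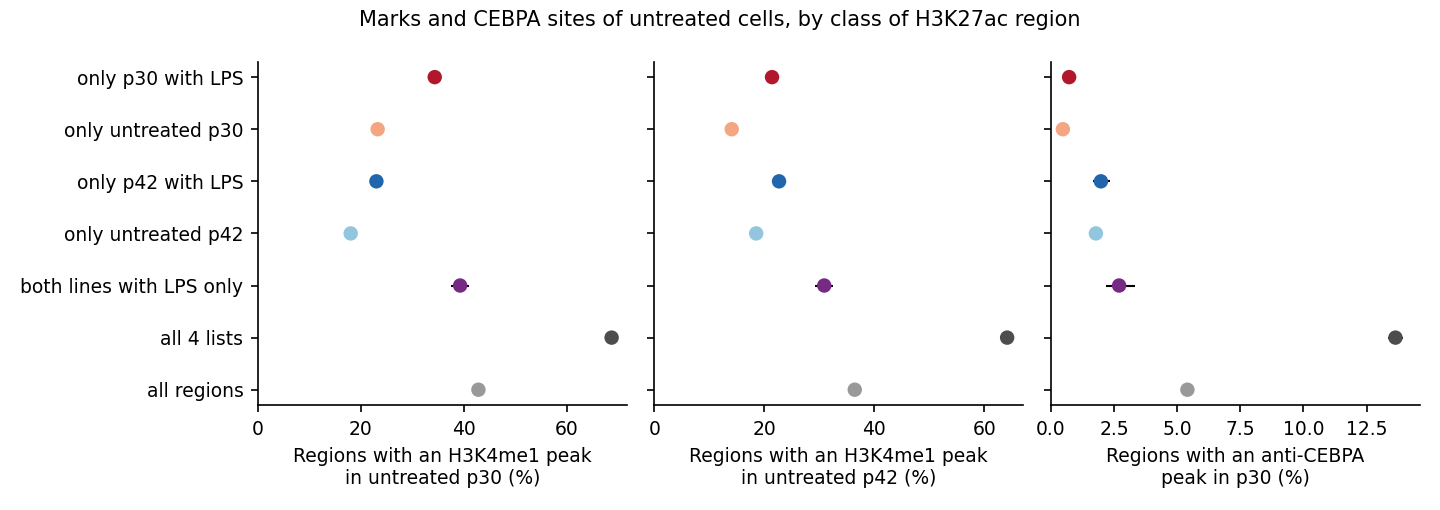
Share of H3K27ac regions (%, points) with an H3K4me1 peak in untreated p30 cells, an H3K4me1 peak in untreated p42 cells or an anti-CEBPA peak in p30 cells, by class of region, with 95% Wilson intervals as bars (many are smaller than the point). Regions only in p30 with LPS stood at 34.3%, 21.4% and 0.724%, below all regions in every panel and above the regions only in untreated p30.

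The H3K4me1 share was higher among stronger regions. In 5 bins cut at the quintiles of the −log10 q of the p30 LPS regions (bins differ in size because many peaks share a q), it was 29.1% in the weakest and 42.8% in the strongest bin. Regions only in untreated p30 put through the same bins held 20.2% and 29.6%, lower in each of the 5 bins. With equally long lists the shares were 40.0% and 27%. Regions within 1000 bp of another H3K27ac list carried p30 H3K4me1 more often (37.2%) than those farther away (29.6%) or beyond 10 kb (23.2%).

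Binding of the CEBPA transgene was seldom found at these regions. An anti-CEBPA peak of p30 cells overlapped 169 of them (0.724%, interval 0.623 to 0.841%), against 5.41% of all merged regions and 13.6% of regions of all 4 lists. The anti-ER list of p30 cells overlapped 244 (1.05%), against 8.86% of all merged regions, and 113 were in both lists. Regions only in untreated p30 stood at 0.475% and 0.619%, and regions only in p42 with LPS at 1.98% and 2.51%. In the p42 lines 218 of the regions (0.934%) had an anti-CEBPA peak and 114 (0.488%) an anti-ER peak, and 67 were bound in all 4 CEBPA lists. The anti-ER samples were labelled untreated and the anti-CEBPA sample titles name no treatment. None of the 4 lists was labelled as made with LPS, so sites bound only after LPS could not be assessed. The regions are narrow, and by strength (the same 5 bins of q) the anti-CEBPA p30 share was 1.09% in the strongest and 0.676% in the weakest bin.

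Of the summits, 9.31% (8.94 to 9.69%) lay in a promoter, from 1000 bp before to 100 bp after the start of any annotated transcript, against 13.0% of all merged regions. Another 13.3% lay in exons, 63.4% in introns and 14.0% (13.6 to 14.5%) between genes, where all merged regions held 10.1%. Regions only in untreated p30 lay between genes in 7.89% (7.55 to 8.24%). The pair of p42 classes showed the same order, with 11.6% only with LPS against 7.21% only untreated, and regions that appeared in both lines held the highest share, 16.2%. Inside the class the share between genes was 12.6% in the weakest bin by q and 17.3% in the strongest, 18.1% for regions beyond 1000 bp from other H3K27ac and 29.4% beyond 10 kb. The difference from regions only in untreated p30 was found in each of the 5 bins and with equally many peaks from each list (14.5% against 7.57%). The median distance to the nearest protein-coding start site was 9459 bp, compared with 8504 bp only in untreated p30.

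**Figure D3:**
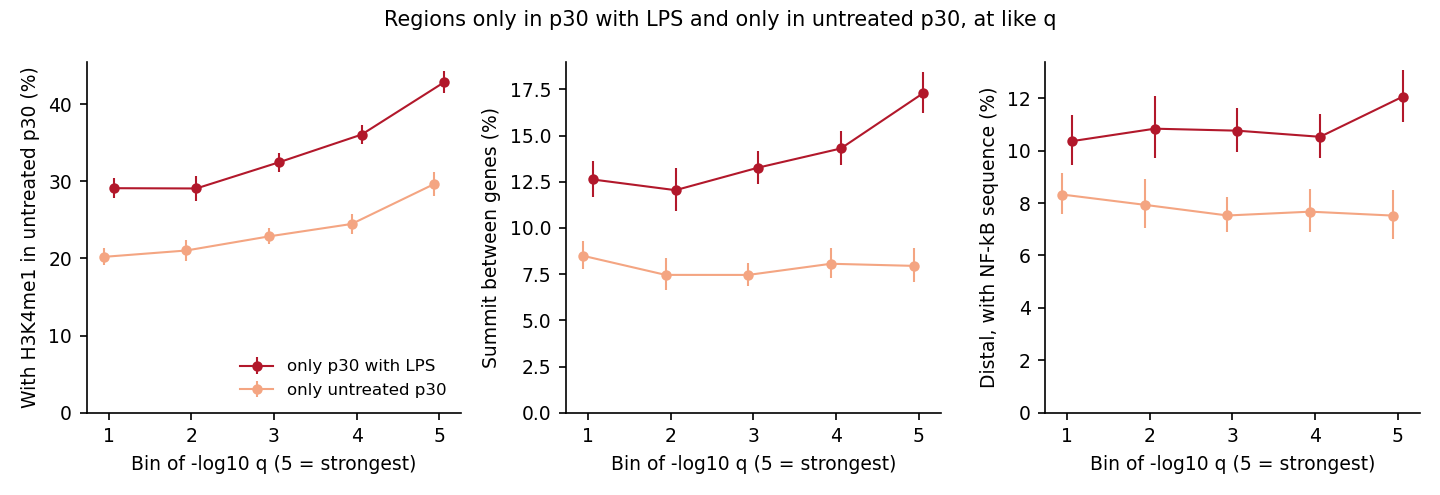
Share of regions (%, points, with 95% Wilson intervals) with H3K4me1 in untreated p30 cells, with a summit between genes, and, among regions outside promoters, with an NF-kB sequence within 1000 bp, in 5 bins of −log10 q for regions only in p30 with LPS (dark red) and only in untreated p30 (light red). The dark points lie above the light ones in every bin of each panel.

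Sequences were searched in a window of 1000 bp centred on the summit, on both strands, in regions outside promoters. The NF-kB sequence (its 10-letter consensus) was present in 2307 of 21175 regions (10.9%, interval 10.5 to 11.3%), against 9.32% of all merged regions outside promoters. Only in untreated p30 it was present in 7.80% (7.45 to 8.17%), and in 7.66% after weighting to the base composition of the p30 LPS regions in bins of 2% GC, a ratio of 1.42. With equally long lists the shares were 10.8% and 7.65%. Among the 12 sequences searched, the weighted ratio to regions only in untreated p30 was larger for that of the factor CTCF (1.15% against 0.791%, ratio 1.46). For that of the factor SP1 it was 1.28. For NF-kB the p42 classes held 9.01% with LPS and 6.75% untreated, and regions that appeared in both lines held 16.0%. Regions of all 4 lists held 10.6%, close to the 10.9% of the p30 LPS regions. After the same weighting the ratio was 1.11 to regions only in p42 with LPS and 1.17 to regions of all 4 lists. Among the p30 LPS regions the NF-kB share did not follow strength closely, from 10.4% in the weakest to 12.1% in the strongest bin. It was higher away from other H3K27ac: 9.92% within 1000 bp, 12.5% beyond it and 18.3% (16.1 to 20.7%) beyond 10 kb.

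The AP-1 sequence (TGACTCA or TGAGTCA) was present in 18.2% (17.6 to 18.7%), close to the 18.9% of all merged regions outside promoters. It was present in 16.3% only in untreated p30, 20.8% only in p42 with LPS, 23.8% of regions that appeared in both lines and 21.6% of regions of all 4 lists. The reversed letters ACTCAGT or ACTGAGT, searched as a control with the same composition, were present in 16.9% of the p30 LPS regions and 17.4% of those only in untreated p30. The CEBP sequence was present in 4.76% (4.48 to 5.05%), against 6.22% of all merged regions. It was present in 4.93% only in untreated p30, while the p42 classes held 7.51% with LPS and 7.15% untreated. For PU.1, a factor of myeloid and lymphoid cells whose sequence was searched as GAGGAAGT, the share was 7.79% against 9.41% of all merged regions, and 14.0% in regions of all 4 lists. A match to a sequence is a description of the DNA and not of binding.

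With every summit assigned to the nearest protein-coding start site, 7816 of 21738 genes (36.0%) received at least 1 of the regions. Regions gathered at few genes: 368 genes received 10 or more and together held 24.5% of them, and 63 genes received 20 or more. Regions only in untreated p30 were spread alike, with 350 and 65 such genes, and 5105 genes received both kinds. The genes with the most were Zeb2, Cdkal1, Maml3, Foxn3, Foxp1 and Bcl11a. Zeb2, an E-box-binding repressor, received 60 regions, against 5 only in untreated p30, 21 only in p42 with LPS and 7 only in untreated p42. Its regions lay far out in the gene-poor DNA beside it, at a median of 653460 bp, and 43 were more than 100 kb away, so the assignment rests on distance alone. Cdkal1, which encodes a tRNA-modifying enzyme, received 59 against 17, and 30 of the 59 carried H3K4me1 in untreated p30 cells. Maml3, a coactivator of Notch signalling, received 58 against 18. The forkhead factor genes Foxn3 and Foxp1 received 55 against 13 and 48 against 30.

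Bcl11a received 45 regions against 4, with none in the p42-only classes, and 25 of them carried H3K4me1 in untreated p30 but 4 in untreated p42. Of its regions with the highest fold, both at 4.25, 1 was 2005 bp wide (chr11:24196120-24198124), the widest of the class. Gas7, whose product joins membrane and actin, received 32 regions and none only in untreated p30 or in either p42 class, which was 64.0% of all 50 regions nearest to it. They lay at a median of 4887 bp from untreated p30 peaks, and 4 carried p30 H3K4me1. Myc received 36 against 5, of which 35 were more than 100 kb from its start, and the p42 classes held 16 with LPS and 18 untreated. With equally many peaks from each list the order between the lines turned at Myc, with 17 only in p30 with LPS and 23 only in p42 with LPS. Kit, the receptor for stem cell factor and a marker of these progenitors, received 31 against 4, and 19 carried p30 H3K4me1. Id2, an inhibitor of E proteins, received 29 against 7 and 25 of the 29 carried p30 H3K4me1. Further genes with a large excess were Fchsd2 (30 against 8), the adaptor gene Fyb1 (27 against 1), Gse1 (26 against 5), Rasgef1b (24 against 3), Stx8 (24 against 3) and Pde4d (40 against 16).

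Among the remaining genes with many regions the counts were less one-sided. Fut8 received 35 against 19, Ptprc (CD45) 34 against 20 and Utrn (utrophin) 33 against 22. Aff3 had 40 against 51 and Prkce, a protein kinase C gene, 32 against 37, so at these 2 genes the regions only in untreated p30 were more numerous. Aff3 was the gene with the most regions only in untreated p30. With equally many peaks from each list the counts were 35 against 4 at Zeb2, 39 against 2 at Bcl11a, 44 against 8 at Cdkal1, 18 against 0 at Gas7, 29 against 2 at Kit and 14 against 14 at Utrn. The regions only in p42 with LPS then numbered 26 at Zeb2, 0 at Bcl11a, 2 at Cdkal1, 0 at Gas7 and 5 at Kit.

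**Figure D4:**
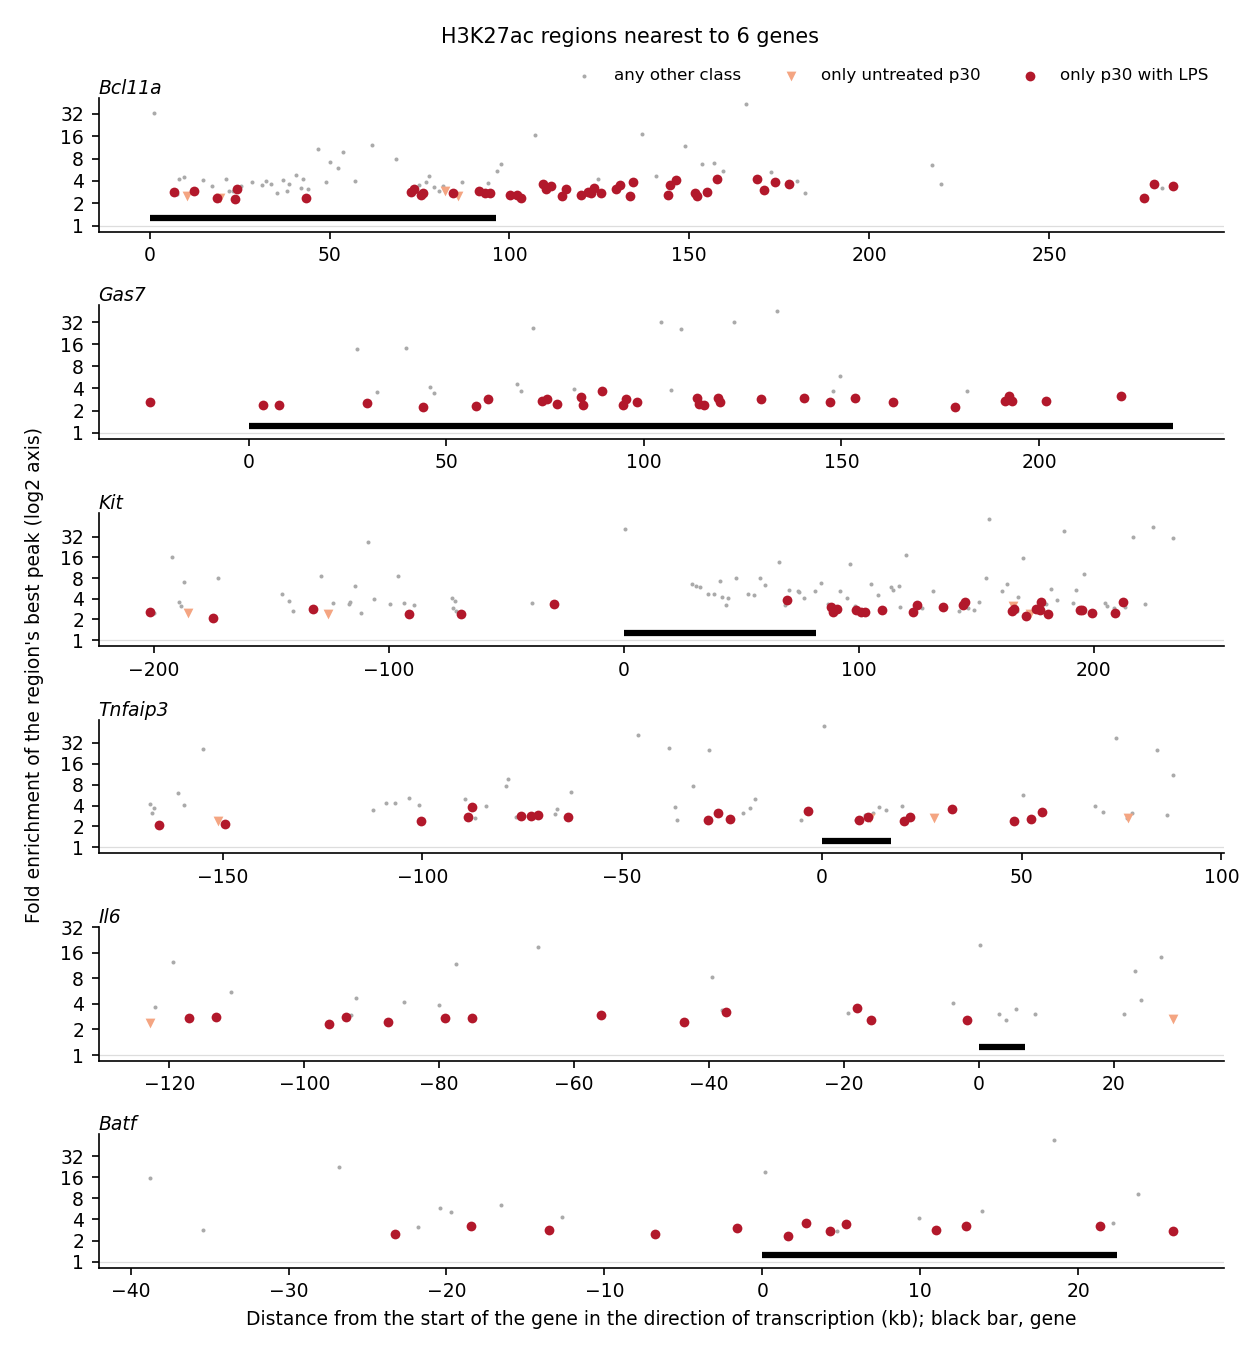
H3K27ac regions nearest to Bcl11a, Gas7, Kit, Tnfaip3, Il6 and Batf, by distance from the start of the gene in the direction of transcription (x axis, kb) and fold enrichment of their best peak (y axis, log2 scale), with the gene as a black bar. The regions only in p30 with LPS (dark red) lie low on the fold scale among stronger regions of other classes (grey), and regions only in untreated p30 (light red) number 4, 0, 4, 4, 2 and 0 in the same order.

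Genes of the NF-kB pathway carried the highest share of these regions of the 12 gene lists. Of 16 genes for NF-kB subunits and inhibitors, 14 received at least 1 region, and together they received 97 of the 365 regions nearest to them (26.6%), against 20 only in untreated p30. Over all protein-coding genes the same share was 12.7%. In 13 of the 16 genes the p30 LPS regions were more numerous and in 1 the untreated ones. With equally many peaks the counts were 62 against 14, and in p42 cells 30 with LPS against 12 untreated. Tnfaip3, the A20 inhibitor of NF-kB signalling, received 21 against 4, the strongest at 3.78-fold and 87617 bp from the start. Nfkb1, the gene for p105 and p50, received 15 against 5 and had a region in its promoter. Nfkbiz (IκBζ) received 12 against 3 and, in p42 cells, 12 with LPS against 4 untreated; with equally many peaks the LPS counts at this gene were 8 in p30 and 15 in p42. The A20-binding protein gene Tnip3 received 11 against 1, and its best region (chr6:65575397-65575781) was 5.32-fold enriched. Nfkbia (IκBα) and Birc3 (cIAP2) each received 8 against 1, and the strongest at Nfkbia lay 6422 bp from the start with 4.37-fold enrichment. Bcl3 received 6 against 0 and Tnip1 5 against 1.

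Genes for inflammatory cytokines and chemokines received 67 regions at 19 of 39 genes (48.7% of the genes, against 36.0% of all protein-coding genes). They made up 19.9% of the regions nearest to these genes, against 18 regions only in untreated p30. In p42 cells there were 30 with LPS and 16 untreated, and with equally many peaks the counts were 48 against 9 in p30 and 42 against 10 in p42. H3K4me1 of untreated p30 cells lay over 46 of the 67 (68.7%), against 34.3% of the whole class. The share varied among the other lists. It was 69.5% for C/EBP and myeloid factor genes, 62.5% for progenitor marker genes, 45% for AP-1 family genes and 37.1% for NF-kB subunits and inhibitors. Il6, the cytokine gene, received 13 against 2, and 4 in p42 with LPS. Its strongest region lay 18053 bp from the start (chr5:30199967-30200317, 3.54-fold). Lif received 7 against 2, with a best fold of 4.13 and a region in its promoter, Il12a 6 against 3 and Csf1 5 against 2. Il10 received 1, in its promoter at 1.95-fold, and 3 only in p42 with LPS, and with equally many peaks 0 and 3. Of the chemokine genes Ccl5 received 7 against 0, Ccl17 4 against 0 and Ccl3 4 against 1, and the best Ccl17 region, 405 bp from its start in the promoter window of a long noncoding RNA, was 5.08-fold enriched.

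**Figure D5:**
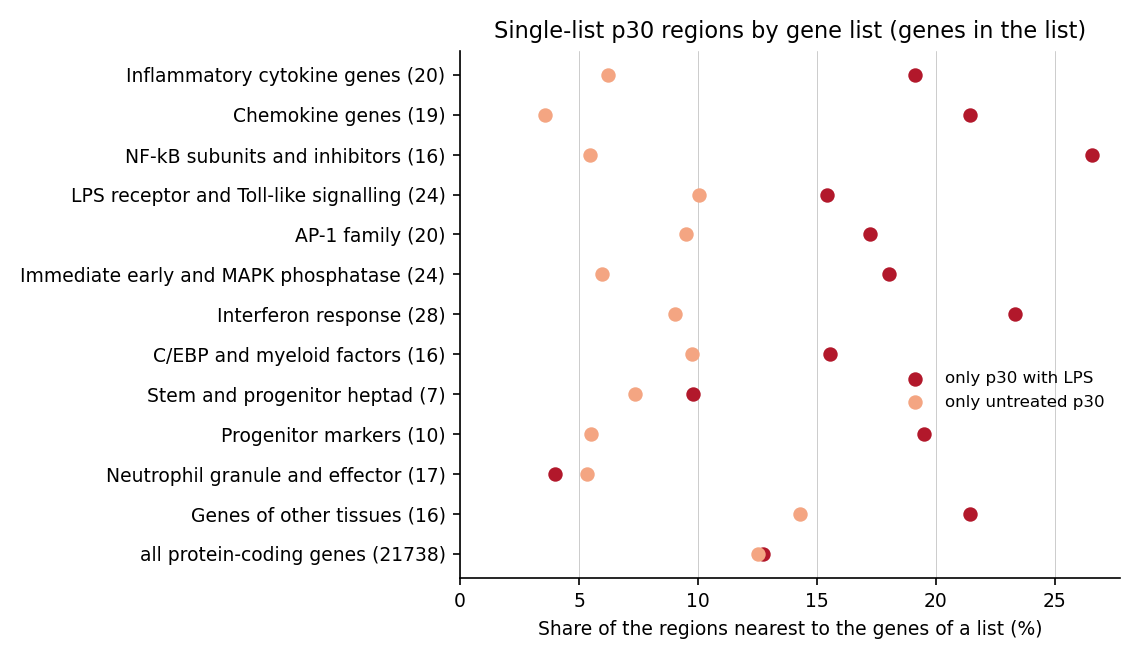
Share of the H3K27ac regions nearest to the genes of each list (%, points) found only in p30 with LPS (dark red) or only in untreated p30 (light red), with the number of genes in parentheses. The share only in p30 with LPS was 26.6% for NF-kB subunits and inhibitors, 21.4% for both the chemokine genes and the genes of other tissues, 12.7% for all protein-coding genes and 4.00% for neutrophil granule genes, the only list where the light point lies to the right.

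Among the regions outside promoters nearest to the genes of these 3 lists (NF-kB, cytokine, chemokine), 8 held an NF-kB sequence inside the peak, of which the following 3 are shown because of the genes beside them (chosen after their values were seen, GRCm39, plus strand, NF-kB letters in capitals).
Nfkbia, chr12:55518935-55519064: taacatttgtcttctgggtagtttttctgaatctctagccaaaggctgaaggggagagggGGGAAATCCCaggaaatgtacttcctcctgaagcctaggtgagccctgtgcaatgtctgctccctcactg
Il1rn, chr2:24225467-24225596: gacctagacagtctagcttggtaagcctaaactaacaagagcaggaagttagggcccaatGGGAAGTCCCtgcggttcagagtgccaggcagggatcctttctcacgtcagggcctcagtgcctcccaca
Ccl5, chr11:83432832-83432961: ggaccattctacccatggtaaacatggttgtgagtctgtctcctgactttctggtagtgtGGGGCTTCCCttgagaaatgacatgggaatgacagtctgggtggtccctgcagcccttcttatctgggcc
The Nfkbia region was 2.83-fold enriched and lay 19571 bp from the start, with the sequence 24 bp from its summit. The Il1rn region, at the gene for the interleukin-1 receptor antagonist, was 975 bp wide and 3.14-fold enriched, lay 8629 bp from the nearest other H3K27ac peak and carried H3K4me1 in p30 but not in p42. The Ccl5 region was 2.72-fold enriched, 6896 bp from the start, with the same H3K4me1 pattern.

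Among the remaining lists the share ran from 4.00% to 23.3%. Interferon response genes received 62 regions at 18 of 28 genes, 23.3% of their regions, against 24 only in untreated p30. With equally many peaks the counts were 28 against 10, and in p42 cells 19 with LPS against 7 untreated. Ifih1, the sensor MDA5, received 10 against 1, the signalling inhibitors Socs3 and Socs1 received 10 against 1 and 4 against 0, and Irf1 received 7 against 3. With equally many peaks Socs3 had 3 against 0, and 3 only in p42 with LPS. Socs1 then had 2 against 1, and 1 only in p42 with LPS. Ifih1 and Irf1 had 6 against 1 and 2 against 0, with 0 only in p42 with LPS. Promoter regions were found at Rsad2, Ifit3, Oas2 and Ifih1, among others. Immediate early and MAP kinase phosphatase genes received 103 against 34, with Klf6 at 16 against 2 and Zfp36l1 at 13 against 0, and AP-1 family genes received 60 against 33. These became 66 against 20 and 39 against 19 with equally many peaks, and in p42 cells 45 against 28 and 22 against 21. Batf, an AP-1 family member, received 13 against 0, Maf 14 against 9, Atf3 6 against 5, Jdp2 7 against 2 and Jun 4 against 5. Genes of the LPS receptor and Toll-like signalling received 43 against 28, or 15.4% of their regions, among them Tab2 with 13 against 10 and Ly96 (MD-2) with 4 against 2. That excess shrank to 20 against 17 with equally many peaks, where p42 cells had 23 with LPS against 18 untreated. Genes for C/EBP and myeloid factors received 59 against 37, in p42 cells 11 with LPS against 35 untreated, and with equally many peaks 35 against 23 in p30 and 14 against 30 in p42. The excess in p30 rested on Id2, which held 29 of the 59 and 7 of the 37. With equally many peaks Id2 held 24 of the 35 and 5 of the 23. Irf8 received 6 against 2, Cebpd 5 against 2, Cebpa itself 5 against 3 and Trib1 4 against 10. The order at Cebpa turned with equally many peaks, to 2 against 4.

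Genes of the progenitor state differed among themselves. The 10 progenitor marker genes received 64 against 18, of which Kit held 31 and Meis1 17 against 7, with Cd34 at 6 against 2 and Myb at 5 against 0. With equally many peaks these genes held 50 against 18, and in p42 cells 9 with LPS against 2 untreated. Meis1 then held 13 against 12. The 7 heptad factor genes, which encode core stem cell regulators, received 28 against 21, or 9.79% of their regions, below the 12.7% of all genes. Among them Runx1 received 13 against 12, Lmo2 6 against 5 and Tal1 4 against 0. With equally many peaks the heptad genes held 14 against 9, and in p42 cells 17 with LPS against 13 untreated. Neutrophil granule and effector genes received 3 against 4, 4.00% of their regions, and the genes of other tissues, a list of genes typical of other organs, 6 against 4 at 4 of 16 genes. Those 6 were 21.4% of the 28 regions nearest to them, the same share as for the chemokine genes and above the 19.9% of cytokine and chemokine genes together. Pax6, a gene of eye and brain, held 2 of those 6, both in a promoter. Of 4 further loci fixed by name, Fos received 3 regions, the nearest 42771 bp from its start, and Gadd45a received 3 against 0, with 4 in p42 with LPS. Cebpb and Cxcl10 received none, and Cxcl10 had 2 only in p42 with LPS. Each gene list has few genes, counts within a list are led by a few large loci, and no list was tested.

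The best-ranked regions of the class were of 2 kinds. Some were broad peaks: the Tspan18 intron region, the region nearest to Gtf2f2 (chr14:76288293-76290214, 1922 bp, 7.04-fold, 31256 bp from other peaks) and the ones in introns of Gdpd5 (6.52-fold) and St8sia1 (7.56-fold), 352 and 2311 bp from other peaks. Others were no wider than about a fragment: the strongest of all, in a promoter window near Gm3476 (chr14:16361062-16361220, 159 bp, 18.7-fold), and regions near Gm3164 (165 bp, 8.98-fold), Usp9x (165 bp, 8.03-fold, over the pseudogene Rpl3-ps1), Rgs4 (164 bp, 7.44-fold), Mrgprb5 (168 bp, 7.44-fold), Potefam3a (161 bp, 3.08-fold), Pira1 (191 bp, 7.09-fold) and 9030624G23Rik (162 bp, 5.32-fold). The distance of these narrow regions to other H3K27ac varied widely. It was 606882 bp near Mrgprb5, 236788 bp near 9030624G23Rik, 80006 bp near Gm3164, 56339 bp near Rgs4 and 19787 bp near Pira1. Near Usp9x it was 4917 bp, near Potefam3a 936 bp and near Gm3476 261 bp. Several of these genes belong to families of near-identical copies, where reads may be placed in the wrong copy, and their values are uncertain. Of the class, 40.1% were at most 200 bp wide. In promoters, the best-ranked regions with H3K4me1 in untreated p30 cells were those nearest to Phgdh (962 bp, 5.14-fold), Slamf7 (695 bp, 4.51-fold) and Kcnh2 (907 bp, 5.08-fold), while those nearest to Orai1 (5.43-fold) and Mndal (4.38-fold) carried none. The Ttl intron region, 213 bp from another H3K27ac peak, was the only 1 of these 20 regions with a CEBPA site, in the anti-ER list of p30 cells.

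The regions made up 10.8% to 14.2% of the merged regions on each autosome, lowest on chromosome 17 and highest on chromosome 3. On the autosomes, the number per region only in untreated p30 ran from 0.804 on chromosome 17 and 0.848 on chromosome 1 to 1.23 on chromosome 19. On chromosome X the regions made up 13.8% of the merged regions, within the range of the autosomes. There were 283 against 109 on chromosome X, a ratio of 2.60, and 9 against 0 on chromosome Y, of 38 merged regions there. The study lists HPC-7 as a female line, so the chromosome Y counts cannot be read as acetylation of that chromosome. Their source was not tested. In p42 cells chromosome X held 76 with LPS and 196 untreated.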

How the data were processed

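HPC-7 lines carrying p42-ERT2 or p30-ERT2 were profiled by ChIP-seq, and 10 peak lists of the series were used here (4 for H3K27ac, 2 for H3K4me1, 2 for anti-CEBPA and 2 for anti-ER), from 20 of its 40 samples together with inputs. A further list, from another cell line, was not used here. According to the study's methods and the submitters' processing notes, reads were trimmed with Trim Galore (0.6.6), aligned to mm39 with Bowtie2, deduplicated with Picard and, with replicates pooled, called against input with MACS2 at a q of 0.05. The deposited lists give each peak's fold enrichment over background (a ratio) and its −log10 p and −log10 q as the authors' caller wrote them, with no counts and no depth.

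Regions were built with Python (3.11.15), pandas (2.3.3) and pysam (0.24.0), by 1 bp of overlap, and classed by the lists present. Peaks on unplaced contigs were left out. The summit of a region was that of its best-ranked peak. Placement and nearest genes came from GENCODE vM39 on GRCm39, whose chromosome lengths match mm39, and sequences from that genome. Shares have 95% Wilson intervals. Merging, classing, distances and sequence search were tested on simulated data. Named genes were the 15 protein-coding genes with the most regions, the 15 with the largest excess over regions only in untreated p30, genes of the 12 lists with at least 4 regions or 1 in a promoter, and 4 loci. Named regions were the 10 best-ranked in and outside promoters and the 3 best-ranked distal ones per sequence type. The regions, lists and rules were chosen with earlier results of these data known. A gene that these rules name is not reported here by name, but it was kept in the counts over its list. Alternatives were a stricter q, equally long lists, merging within 1000 bp, wider promoters, a 500 bp window, anti-ER in place of anti-CEBPA, equal H3K4me1 lists and genes within 50 kb. Comparisons within 5 bins of q, by distance to other H3K27ac, with equally long lists for all classes, and with touching peaks joined were added after the data were seen.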

Additional observations from a re-analysis of the deposited data

Results flagged for a closer look

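The number of regions found only with LPS minus the number found only without it went in opposite directions in the lines with all peaks: it was 390 in p30 cells and -10179 in p42 cells. With equally many peaks from each list it was -968 in p30 cells and -3052 in p42 cells, so both lines went the same way. The difference was not tested, since each group has 1 pooled list, and the p42 LPS list was the shortest of the 4. No group held enough separate lists to look for a list far from the others.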

How the results depend on the processing

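No paired analysis was possible because the replicates of each group were pooled into 1 list, and leaving out a replicate could not be run for the same reason. With q under 1e-05 for presence in the p30 LPS list the class held 4693 regions, with H3K4me1 in p30 at 42.8%, H3K4me1 in p42 at 27%, anti-CEBPA p30 at 1.11%, promoters at 9.93%, NF-kB at 12.1%, AP-1 at 17.4% and 12 inflammatory genes nearest to a region, against 19. With equally long lists it held 14145 regions, 41.3% of them more than 1000 bp from other H3K27ac, with H3K4me1 at 40.0% in p30 and 25.3% in p42, and the number only with LPS minus the number only untreated turned from 390 to -968 in p30 and moved from -10179 to -3052 in p42. Merging within 1000 bp left 7300 regions, with H3K4me1 at 28.7% in p30 and 15.5% in p42, anti-CEBPA at 1.08%, promoters at 8.62%, NF-kB at 12.2%, AP-1 at 19.6% and 12 inflammatory genes. Promoters reaching 2500 bp from the start held 31.8%. A window of 500 bp gave 6.47% for NF-kB and 9.79% for AP-1. Anti-ER in place of anti-CEBPA gave 1.05%, equal H3K4me1 lists gave 29.9% in p30, and 29 inflammatory genes had a region within 50 kb. Of 35 alternatives, 27 moved a value beyond its counting interval (for numbers of regions or genes, by over 1.5 times), 1 turned its sign and 7 did neither, among them joining touching peaks (23330 regions). The causes were not tested, apart from what the construction sets (fewer regions, shorter windows, wider promoters). Pooled lists give no spread between replicates, and the lists give no depth, so a region absent from a list cannot be told from one just below its cutoff. All limits apply to the p30 LPS regions and to the classes compared with them.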
